A study of Mus musculus with 15 samples.

Results

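The genes described here are 10 widely used marks of young neurons, namely Tubb3, Dcx, Stmn2, Map2, Mapt, Elavl3, Elavl4, Gap43, Nefl and Nefm. They were taken by gene symbol from the table of all samples, where each was found in 1 entry, so they are 10 of 23244 entries, and all 10 passed the filter on low values that 13845 entries passed. The tissue was mouse optic tissue from SFEBq culture, in which dissociated embryonic stem cells of 1 line (EB5 Rx::GFP+/-, with a GFP reporter in the eye field gene Rx) reaggregate in low-adhesion wells and form a neuroepithelium. The groups were GFP+ epithelium cut out with forceps at Day 10 (Day 10 Rx::GFP+, called Day 10 here) and explants of that epithelium cultured on in retinal maturation medium until Day 12 or Day 15. Explants with +Wnt stimulation received CHIR99201, an inhibitor of the kinase GSK3, at 3 μM for 24 h and at 1 μM from then on. Explants with +Fgf stimulation received 5 ng/ml human recombinant bFgf and 10% FBS, and serum is listed for this medium only, so its effect and that of bFgf cannot be told apart. Each of the 5 groups had 3 libraries, labelled as biological replicates, and unstimulated explants of Day 12 or Day 15 were not analysed here. In a change from Day 10, stimulation, time and culture in maturation medium therefore cannot be told apart.

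A neuron that leaves the cell cycle in the retina or brain extends an axon and dendrites, and for this it builds a cytoskeleton of its own. Microtubules are assembled from neuronal tubulin isotypes and stabilised by associated proteins, RNA-binding proteins of the Elavl family act on neuronal transcripts, and neurofilaments are laid down later in neurons with long axons. In the developing retina the ganglion cells are the first neurons to appear and the ones whose axons form the optic nerve, whereas the pigment epithelium makes no neurons.

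Levels are given in CPM (read counts scaled to library size) as deposited, with the 3 libraries of a group in the order of their replicate numbers, and between 12556998 and 16175450 reads were assigned to genes per library. A difference is on the log2(value + 0.3) scale, is given with its standard error (SE), and was called when the limma adjusted p over all 13845 genes was below 0.05. The deposited labels call the +Fgf tissue neural retina and the +Wnt tissue retinal pigment epithelium. The summed level of an 11-gene pigment epithelium list ranged from 7101 to 9118 CPM at Day 15 +Wnt and from 295 to 383 CPM at Day 15 +Fgf, and its late markers Rpe65 and Best1 were at or near 0, with a mean of at most 0.0236 and 0.280 CPM in any group.

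All 10 genes were higher at Day 15 than at Day 10 under both stimulations, and they took different courses to get there. Of all tested genes, 36.2% were higher with Fgf and 39.6% with Wnt. At Day 12, 9 of the 10 were higher in +Wnt than in +Fgf tissue, as were 25.2% of all tested genes. Between Day 12 and Day 15 the larger increase on the log2 scale was in +Fgf tissue for each gene, and 27.0% of all tested genes were called in that direction. In CPM the larger increase was in +Wnt tissue for Dcx and Mapt. At Day 15 both neurofilament genes, Elavl4, Stmn2 and Gap43 were higher in +Fgf tissue, and Dcx and Mapt were higher in +Wnt tissue. Among all tested genes, 68.7% were called there (38.0% higher and 30.6% lower in +Fgf tissue). The calls for Dcx, Mapt, Stmn2 and Gap43 were lost with the RNA integrity number of each library as a covariate. That number was lower in every +Fgf than in every +Wnt library of Day 15, so RNA quality and stimulation cannot be told apart. The data come from whole tissue, so fewer neurons and less RNA per neuron cannot be told apart.

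**Figure D1:**
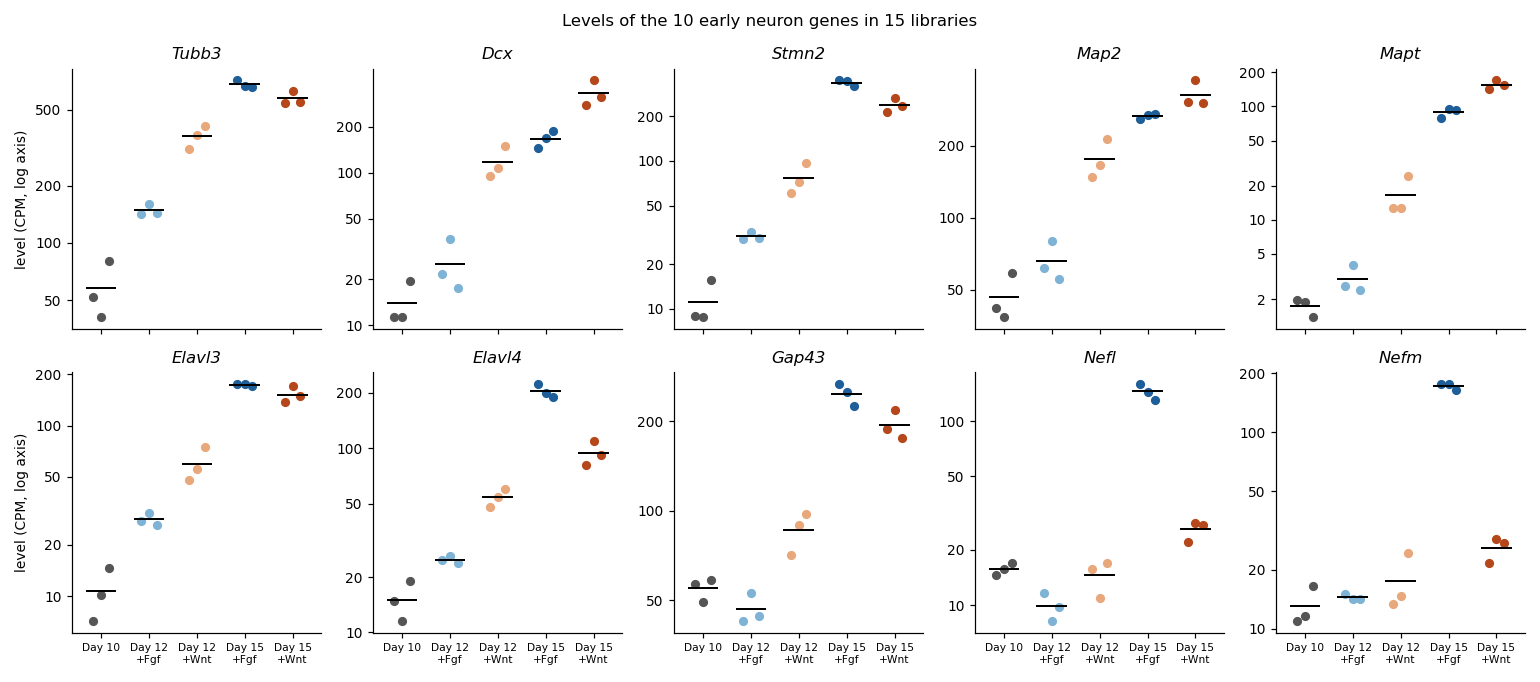
Level of each of the 10 genes (CPM, log axis) in the 15 libraries, with 1 panel per gene, 1 point per library and a bar at the mean of 3 libraries. In the panels of Nefl and Nefm the 3 libraries of Day 15 +Fgf stand apart from the other 12, whereas in the other panels both Day 15 groups are high.

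Tubb3 encodes the beta-tubulin isotype used by neurons from their birth. Its level was 51.8, 40.5 and 80.6 CPM at Day 10. It was 142, 160.4 and 143 CPM at Day 12 +Fgf and 312, 369.6 and 411 CPM at Day 12 +Wnt. It was 714, 671 and 661 CPM at Day 15 +Fgf and 544, 628 and 552 CPM at Day 15 +Wnt. The 5 groups did not overlap, and their order was Day 10, Day 12 +Fgf, Day 12 +Wnt, Day 15 +Wnt and Day 15 +Fgf. From Day 10 the mean rose 11.8-fold to Day 15 +Fgf and 9.97-fold to Day 15 +Wnt. The last pair in that order differed by 0.25 (SE 0.16, limma adjusted p = 0.188), with a 95% interval from -0.097 to 0.59. It was called with the 6 samples of the comparison alone (0.00574).

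Dcx encodes doublecortin, which binds microtubules in migrating young neurons. Dcx was at 11.3, 11.2 and 19.6 CPM at Day 10, at 21.7, 36.8 and 17.5 CPM at Day 12 +Fgf and at 94.8, 108 and 149.8 CPM at Day 12 +Wnt. At Day 15 it was at 146, 169.8 and 187 CPM with Fgf and at 280, 404 and 312 CPM with Wnt. Day 10 overlapped Day 12 +Fgf, and the highest Day 12 +Wnt library lay above the lowest Day 15 +Fgf library. At Day 15 the mean in +Wnt tissue was 1.98-fold that in +Fgf tissue, a difference of -0.97 for +Fgf minus +Wnt (SE 0.24, limma adjusted p = 0.00205). With the RNA integrity number as a covariate it was -0.50 and not called (0.384).

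Map2 encodes a microtubule-associated protein of neuronal cell bodies and dendrites. Its level was 42.2, 38.4 and 59.1 CPM at Day 10, 61.9, 79.8 and 55.8 CPM at Day 12 +Fgf and 147, 166 and 213 CPM at Day 12 +Wnt. It was 258, 268 and 271 CPM at Day 15 +Fgf and 303, 374 and 302 CPM at Day 15 +Wnt. Only the first pair of groups overlapped. The Day 15 groups differed by -0.29 (SE 0.16, limma adjusted p = 0.109), which missed the threshold although the +Wnt libraries were all above the +Fgf libraries. The adjusted p was below 0.05 with quantile normalization (0.0178), with the 6 samples of the comparison alone (0.00946) and with edgeR on the recovered reads (0.0446).

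Mapt encodes tau, the microtubule-associated protein of axons, and it had the largest change of the 10. It was at 1.98, 1.87 and 1.38 CPM at Day 10, at 2.60, 4.01 and 2.43 CPM at Day 12 +Fgf and at 12.6, 12.7 and 24.1 CPM at Day 12 +Wnt. It was at 79.1, 95.5 and 93.7 CPM at Day 15 +Fgf and at 143, 169.5 and 154 CPM at Day 15 +Wnt, and no 2 groups overlapped. The mean at Day 15 was 51.4-fold that of Day 10 with Fgf and 89.4-fold with Wnt. The Day 15 groups differed by -0.80 (SE 0.21, limma adjusted p = 0.00319), with the higher level in +Wnt tissue. With the RNA integrity number as a covariate the difference was -0.51 and not called (0.315). Relative to Map2 in the same library, Mapt ranged from 0.306 to 0.356 at Day 15 +Fgf and from 0.453 to 0.512 at Day 15 +Wnt, as a ratio of CPM.

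Stmn2 encodes a stathmin of growth cones, a protein that binds tubulin dimers and destabilises microtubules. It was at 8.99, 8.76 and 15.7 CPM at Day 10, at 29.5, 33.1 and 30.1 CPM at Day 12 +Fgf and at 60.8, 72.6 and 97.4 CPM at Day 12 +Wnt. It was at 350.3, 347 and 319 CPM at Day 15 +Fgf and at 215, 266 and 234 CPM at Day 15 +Wnt. No 2 groups overlapped. The Day 15 difference was 0.51 (SE 0.18, limma adjusted p = 0.0169), and it was not called without Day 15 +Wnt replicate 1 (0.0655), with quantile normalization (0.0713) or with the RNA integrity number as a covariate (0.16).

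Elavl3 and Elavl4 encode neuronal RNA-binding proteins (HuC and HuD) that bind AU-rich elements in transcripts. Elavl3 was at 7.15, 10.2 and 14.6 CPM at Day 10, at 27.5, 30.8 and 26.2 CPM at Day 12 +Fgf and at 48.1, 55.3 and 74.5 CPM at Day 12 +Wnt. At Day 15 it was at 175, 176 and 169.7 CPM with Fgf and at 137, 169.9 and 149 CPM with Wnt, so that 1 +Wnt library lay within the +Fgf range. The Day 15 difference of 0.19 (SE 0.18, limma adjusted p = 0.356) was not called, with a 95% interval from -0.19 to 0.58. It was called with the 6 samples of the comparison alone (0.0342).

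Elavl4 was at 14.8, 11.6 and 18.9 CPM at Day 10, at 24.8, 25.9 and 23.7 CPM at Day 12 +Fgf and at 48.0, 54.2 and 60.1 CPM at Day 12 +Wnt. It was at 224, 200.0 and 191 CPM at Day 15 +Fgf but at 81.2, 110.1 and 92.0 CPM at Day 15 +Wnt, and no 2 groups overlapped. The mean at Day 15 was 2.17-fold higher with Fgf (log2 difference 1.12, SE 0.14, limma adjusted p = 1.79e-06). The ratio of Elavl3 to Elavl4 within a library was between 0.780 and 0.888 at Day 15 +Fgf and between 1.54 and 1.69 at Day 15 +Wnt.

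Gap43 encodes a membrane-bound phosphoprotein of growing axons and was already present at Day 10, at 56.9, 49.5 and 58.6 CPM. It was at 42.6, 52.9 and 44.1 CPM at Day 12 +Fgf and at 71.0, 89.7 and 97.6 CPM at Day 12 +Wnt. It was at 268, 252 and 225 CPM at Day 15 +Fgf and at 189, 218 and 176 CPM at Day 15 +Wnt. The lowest 2 groups in the order, Day 12 +Fgf and Day 10, overlapped and differed by -0.24 (SE 0.11, limma adjusted p = 0.0790), a difference that was called without Day 10 replicate 2 (0.0441) or Day 12 +Fgf replicate 2 (0.0243). The Day 15 groups did not overlap and differed by 0.35 (SE 0.11, limma adjusted p = 0.0103), which was not called without Day 15 +Wnt replicate 3 (0.0540), with quantile normalization (0.116) or with the RNA integrity number as a covariate (0.10, adjusted p = 0.709).

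Nefl and Nefm encode the light and medium neurofilament subunits, which assemble into the intermediate filaments of axons. Nefl was at 14.6, 15.8 and 17.0 CPM at Day 10, at 11.6, 8.22 and 9.77 CPM at Day 12 +Fgf and at 15.8, 10.9 and 17.0 CPM at Day 12 +Wnt. It was at 159, 144 and 130.5 CPM at Day 15 +Fgf and at 22.1, 28.0 and 27.2 CPM at Day 15 +Wnt. Day 12 +Wnt overlapped both Day 10 and Day 12 +Fgf, and the Day 15 groups lay above all others, with Day 15 +Fgf the highest. The Day 15 mean was 5.61-fold higher with Fgf than with Wnt (log2 difference 2.48, SE 0.15, limma adjusted p = 2.83e-10).

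Nefm was at 11.0, 11.6 and 16.6 CPM at Day 10, at 15.0, 14.1 and 14.2 CPM at Day 12 +Fgf and at 13.3, 14.7 and 24.4 CPM at Day 12 +Wnt. It was at 177, 176 and 165 CPM at Day 15 +Fgf and at 21.7, 28.5 and 27.4 CPM at Day 15 +Wnt. Day 10 and both Day 12 groups overlapped, and the highest Day 12 +Wnt library lay within the Day 15 +Wnt range. The Day 15 mean was 6.66-fold higher with Fgf (log2 difference 2.73, SE 0.18, limma adjusted p = 8.71e-10). Relative to Tubb3 in the same library, Nefm ranged from 0.247 to 0.262 at Day 15 +Fgf and from 0.0399 to 0.0497 at Day 15 +Wnt. The 2 ranges did not overlap.

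The first comparison asked how explants after 2 days of stimulation differed from Day 10 tissue. With Fgf, 7 of the 10 genes rose and Nefl fell, while Gap43 and Nefm were not called, and 55.7% of all tested genes were called in this comparison (27.9% higher and 27.8% lower). The groups did not overlap for 6 of the 10 genes, against 61.0% of all tested genes. The median difference of the 10 was 0.71, against -0.0021 over all tested genes. The largest increases were in Stmn2 (1.5, SE 0.18, limma adjusted p = 2.74e-06), Elavl3 (1.43, SE 0.18) and Tubb3 (1.42, SE 0.16). Nefl fell by 0.67 on the log2 scale (SE 0.15, limma adjusted p = 0.00116). The smaller increases of Dcx (0.82), Map2 (0.51) and Mapt (0.68) were not called without Day 12 +Fgf replicate 2. Without it they were 0.52, 0.36 and 0.47, with limma adjusted p of 0.0624, 0.0656 and 0.0732. With the RNA integrity number as a covariate the limma adjusted p was 0.266, 0.172 and 0.224. That number was higher in every Day 12 +Fgf library than in every Day 10 library. Day 12 +Fgf replicate 2 was the highest of its group for 8 of the 10 genes. It was also the highest for Tbr1, a marker of forebrain neurons (17.8 CPM, against 7.42 and 2.87 CPM), and Sim1, of hypothalamic neurons (3.31 CPM, against 0.127 and 0.0639 CPM). The part of these markers in the increases was not tested. The call for Map2 was also lost without Day 10 replicate 2 (0.0671) and that for Mapt without Day 10 replicate 3 (0.0622) or with edgeR (0.126).

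With Wnt, 8 of the 10 genes rose by Day 12, and the share of all tested genes called in this comparison was 60.2% (30.6% higher). The groups did not overlap for 8 of the 10, against 64.3% of all tested genes. The median of the 10 was 2.20, against 0.0085 over all tested genes. Dcx (3.06, SE 0.24), Mapt (2.98, SE 0.21), Stmn2 (2.78, SE 0.18) and Tubb3 (2.70, SE 0.16) changed most, each with a limma adjusted p of at most 2.76e-08. Gap43 changed least of the 8 (0.64, SE 0.11, limma adjusted p = 0.000138). Nefl (-0.14, limma adjusted p = 0.450) and Nefm (0.39, limma adjusted p = 0.0735) were not called. The call for Nefm was gained without Day 10 replicate 3 (0.0143) or Day 12 +Wnt replicate 1 (0.0186). Both comparisons used the same Day 10 libraries. The RNA integrity number was also higher in every Day 12 +Wnt library than in every Day 10 library.

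The direct comparison at Day 12 showed 9 of the 10 genes lower in +Fgf than in +Wnt tissue and none higher, and 51.5% of all tested genes were called (25.2% lower). The groups did not overlap for 8 of the 10, against 60.4% of all tested genes. The median difference of the 10 was -1.20, against -0.0021 over all tested genes. The largest differences were in Mapt (-2.30, SE 0.21, limma adjusted p = 1.29e-07) and Dcx (-2.25, SE 0.24, limma adjusted p = 8.97e-07), whose means were 5.46-fold and 4.64-fold higher in +Wnt tissue. The smallest called difference was in Nefl (-0.54, SE 0.15, limma adjusted p = 0.00648), where the groups overlapped. Nefm differed by -0.22 (SE 0.18, limma adjusted p = 0.335).

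**Figure D2:**
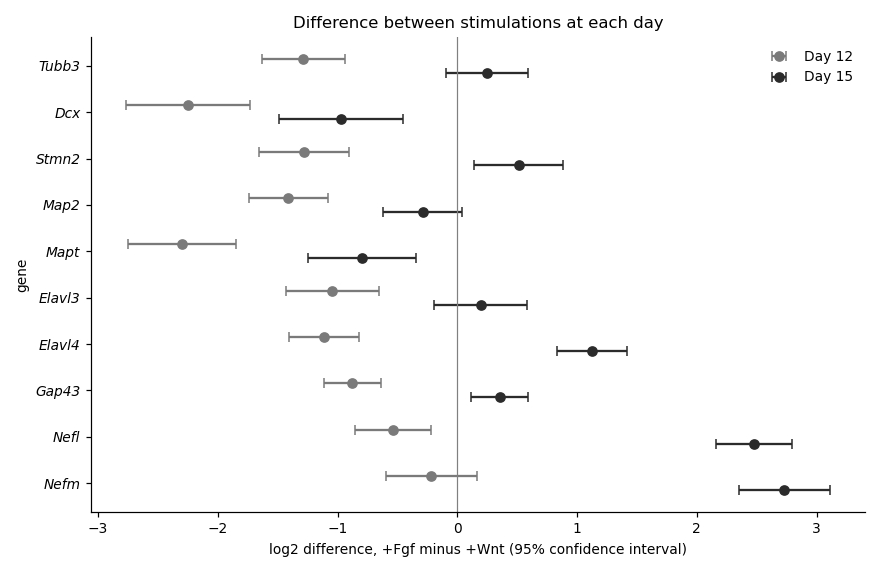
Log2 difference of +Fgf minus +Wnt for each of the 10 genes at Day 12 (grey) and Day 15 (black), with 95% confidence intervals from limma. At Day 12 every point lies below 0, and at Day 15 the points range from -0.97 for Dcx to 2.73 for Nefm.

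From Day 12 to Day 15, all 10 genes rose under Fgf stimulation, with a median of 2.90 against -0.019 over all tested genes, of which 57.1% were called (27.2% higher). The groups did not overlap for any of the 10, as for 63.7% of all tested genes. Each Day 15 +Fgf library had a lower RNA integrity number than each Day 12 +Fgf library, so RNA quality and day cannot be told apart there. Mapt rose most (4.79, SE 0.21, limma adjusted p = 3.53e-11), followed by Nefl (3.84, SE 0.15) and Nefm (3.55, SE 0.18), and Map2 rose least (2.02, SE 0.16, limma adjusted p = 1.50e-08). Under Wnt stimulation all 10 rose as well, with a median of 1.04 against -0.021 over all tested genes, of which 68.0% were called (32.5% higher). The groups did not overlap for 9 of the 10, against 72.8% of all tested genes. Mapt again rose most (3.28, SE 0.21, limma adjusted p = 9.99e-10), and Nefm rose least (0.60, SE 0.18, limma adjusted p = 0.00734). The call for Nefm was lost without Day 12 +Wnt replicate 1 (0.0506).

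The difference between these 2 changes was tested as an interaction term. On the log2 scale the change was larger with Fgf for all 10 genes, while 47.9% of all tested genes were called for this term (27.0% in that direction). The term ranged from 1.12 for Map2 (SE 0.22, limma adjusted p = 0.000506) to 3.02 for Nefl (SE 0.21, limma adjusted p = 1.29e-08), with Nefm at 2.95 and Elavl4 at 2.24. The +Wnt tissue started this interval from the higher level for the 9 genes called at Day 12. The mean of Dcx went from 25.3 to 168 CPM with Fgf and from 118 to 332 CPM with Wnt. That of Mapt went from 3.01 to 89.4 CPM with Fgf and from 16.4 to 155.7 CPM with Wnt. In CPM the larger increase was therefore with Wnt for these genes, and with Fgf for the others.

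**Figure D3:**
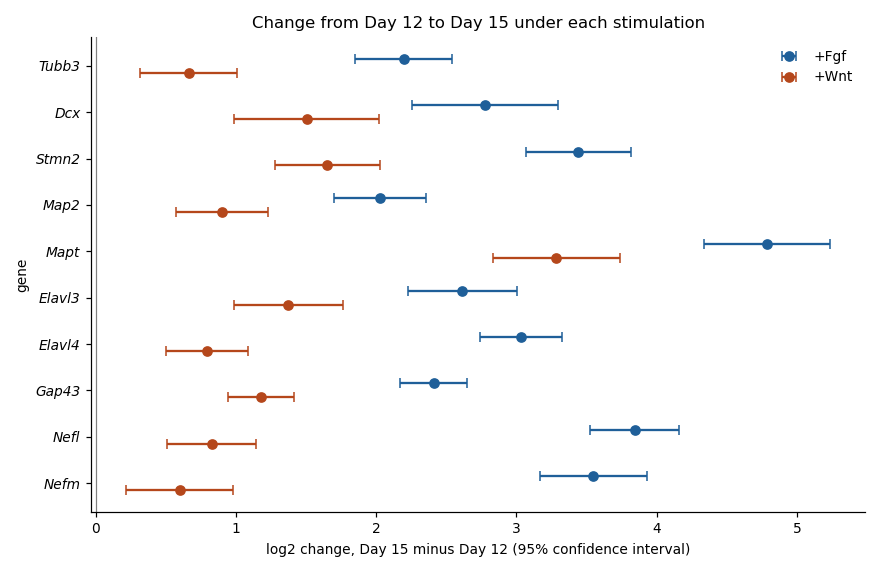
Log2 change from Day 12 to Day 15 for each of the 10 genes under +Fgf (blue) and +Wnt (red) stimulation, with 95% confidence intervals from limma. The blue point is to the right of the red point for every gene, and the gap is widest for Nefl and Nefm.

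At Day 15, 7 of the 10 genes differed between the stimulations, which is close to the share over all tested genes, 68.7%. Higher in +Fgf tissue were 5 of the 10 (38.0% of all tested genes), namely Nefm, Nefl, Elavl4, Stmn2 and Gap43, and lower were Dcx and Mapt (30.6% of all tested genes). The groups did not overlap for 9 of the 10, against 73.1% of all tested genes. The median of the 10 was 0.30, against 0.051 over all tested genes. With the RNA integrity number that the study lists for each library as a covariate, the calls for Dcx, Mapt, Stmn2 and Gap43 were lost. Those for Nefl, Nefm and Elavl4 were kept, while the number of all tested genes called went from 9505 to 6362. The difference of Stmn2 was 0.60 with this covariate and 0.51 without it. Each Day 15 +Fgf library had a lower RNA integrity number than each Day 15 +Wnt library. RNA quality and stimulation therefore cannot be told apart in this comparison. Against Day 10, all 10 genes were higher at Day 15 +Fgf (36.2% of all tested genes were) and all 10 at Day 15 +Wnt (39.6%). Neither of these pairs of groups overlapped for any of the 10, as for 73.8% and 80.6% of all tested genes. The smallest of these changes were those of Nefl (0.69, SE 0.15, limma adjusted p = 0.000448) and Nefm (0.99, SE 0.18, limma adjusted p = 8.69e-05) at Day 15 +Wnt.

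Libraries of a group were ordered alike for many of the 10 genes. Replicate 3 was the highest for 10 of 10 genes at Day 12 +Wnt and for 9 of 10 at Day 10, and replicate 2 was the highest for 10 of 10 at Day 15 +Wnt. The summed level of the 10 genes ranged from 199 to 302 CPM at Day 10, from 367 to 446 CPM at Day 12 +Fgf and from 824 to 1169 CPM at Day 12 +Wnt. It ranged from 2413 to 2551 CPM at Day 15 +Fgf and from 1937 to 2396 CPM at Day 15 +Wnt. The coefficient of variation of a gene had a median of 6.70% over the 10 genes at Day 15 +Fgf, the lowest of the 5 groups, and of 24.1% at Day 10, the highest. Over the 15 libraries, Pearson's r between log2 levels of the genes was highest for Stmn2 and Elavl3 (0.996) and lowest for Dcx and Nefl (0.523). These r values describe points that share groups and libraries.

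Levels of different genes can be compared only per length of transcript. Per kilobase of the RefSeq-matched transcript, Tubb3 was the highest of the 10 in each group except Day 10, where Gap43 was, and the same held per kilobase of all annotated exons. Mapt was the lowest per kilobase by both lengths in every group except Day 15 +Wnt, where it ranked 7 or 6. Other ranks depended on the length. Dcx ranked 2 at Day 15 +Wnt by its transcript of 1333 bp and 4 by its 12647 bp of annotated exons.

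RefSeq start sites with a sequence window in GRCm38.p6 were matched for 5 of the 10 genes (Tubb3, Dcx, Map2, Elavl3 and Elavl4), in 9 windows of 300 bases from 250 before to 50 after a start. The bases before the annotated start of the gene are shown to let the starts of genes that rose together be compared. They are written 5′ to 3′ on the strand of the gene, and capitals mark 3 motifs searched on both strands. These are CANNTG (the E-box bound by proneural factors), GGGCGG (the GC box) and TATAAA (the TATA box).
Tubb3, chr8:123411303-123411423 (+): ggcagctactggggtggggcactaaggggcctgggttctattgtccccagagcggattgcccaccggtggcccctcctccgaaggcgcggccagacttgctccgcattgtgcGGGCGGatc
Dcx, chrX:143933312-143933469 (-): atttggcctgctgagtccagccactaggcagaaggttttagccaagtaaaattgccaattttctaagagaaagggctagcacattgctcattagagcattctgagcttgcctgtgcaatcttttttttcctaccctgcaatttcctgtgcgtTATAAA
Map2, chr1:66175079-66175272 (+): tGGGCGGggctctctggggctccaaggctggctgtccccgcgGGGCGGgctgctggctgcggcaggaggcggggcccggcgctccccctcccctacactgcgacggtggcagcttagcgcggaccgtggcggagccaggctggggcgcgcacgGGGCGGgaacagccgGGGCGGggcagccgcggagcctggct
Elavl3, chr9:22052024-22052273 (-): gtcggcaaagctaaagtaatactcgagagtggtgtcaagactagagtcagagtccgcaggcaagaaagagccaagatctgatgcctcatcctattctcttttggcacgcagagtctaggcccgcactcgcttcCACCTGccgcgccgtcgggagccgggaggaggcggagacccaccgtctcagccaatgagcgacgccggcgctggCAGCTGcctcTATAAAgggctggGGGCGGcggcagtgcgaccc
Elavl4, chr4:110351912-110352161 (-): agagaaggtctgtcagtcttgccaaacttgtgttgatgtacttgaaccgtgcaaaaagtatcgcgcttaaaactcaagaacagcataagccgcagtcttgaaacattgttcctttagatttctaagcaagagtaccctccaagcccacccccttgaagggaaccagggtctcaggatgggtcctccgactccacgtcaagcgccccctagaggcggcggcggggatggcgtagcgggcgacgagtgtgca

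None of the 3 motifs was in all 5 upstream stretches, with GGGCGG in those of Map2, Tubb3 and Elavl3 and TATAAA in those of Elavl3 and Dcx. Elavl3 held 2 E-boxes, 1 of them CAGCTG, along with a TATA box and a GC box, and Dcx held TATAAA alone. In Dcx that match lies directly before the annotated start of the gene. Map2 held 4 GC boxes in a stretch of 79.4% G and C, Tubb3 held 1, and the stretch of Elavl4 held none of the 3 motifs. The whole windows of 300 bases held 5 GC boxes for Map2, 2 for Tubb3 and 2 for Elavl3. Among all 32851 RefSeq windows of 300 bases, which are longer than the stretches shown, 72.3% held CANNTG, 16.3% held CAGCTG, 35.7% held GGGCGG and 13.6% held TATAAA. In the 300-base windows of the other 3 starts of Elavl4, inside the gene, CANNTG occurred 4, 4 and 1 times, and the first 2 of these windows overlap in most of their bases, so they share sites. These matches are descriptions of the letters, and the deposited values do not tell which start was used.

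Shares of the reads within a gene family are descriptions, with no test. Of the reads on 8 beta-tubulin genes, Tubb3 took 1.61% ± 0.539 at Day 10, 3.56% ± 0.161 at Day 12 +Fgf and 8.58% ± 0.888 at Day 12 +Wnt (SD, n = 3). At Day 15 it took 12.5% ± 0.719 with Fgf and 13% ± 0.574 with Wnt. Tubb5, the broadly expressed isotype, took 76.3% at Day 10, 56.3% at Day 15 +Fgf and 48.8% at Day 15 +Wnt. Tubb2b, another neuronal isotype, had 16.7% at Day 15 +Fgf and 26.2% at Day 15 +Wnt, a level difference of -0.35 (SE 0.098, limma adjusted p = 0.00492).

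In the Elavl family the Day 15 tissues differed in which neuronal paralog led. Elavl4 took 37.7% of the family reads and Elavl2 7.54% at Day 15 +Fgf, against 21.8% and 22.1% at Day 15 +Wnt. Elavl3 took 31.9% and 35.3%, and the broadly expressed Elavl1 took 72.4% at Day 10 and 22.9% and 20.8% at Day 15. Elavl2 was at 40.9 ± 4.93 CPM at Day 15 +Fgf and at 95.6 ± 14.9 CPM at Day 15 +Wnt (SD, n = 3), a difference of -1.21 (SE 0.15, limma adjusted p = 2.16e-06) in the direction opposite to Elavl4.

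Among intermediate filament genes, Ina, which encodes the alpha-internexin of young neurons, did not share the neurofilament pattern. It was at 131 ± 22.3 CPM at Day 15 +Fgf and at 131 ± 14.6 CPM at Day 15 +Wnt (SD, n = 3), a difference of -0.0059 (SE 0.16, limma adjusted p = 0.975). From Day 10 to Day 12 it rose by 1.00 with Fgf and by 3.01 with Wnt, as Tubb3 and Dcx did. Of the reads on these genes together with Vim, Nes and Prph, Nefl, Nefm and Ina took 8.91%, 10.6% and 8.07% at Day 15 +Fgf and 2.06%, 2.07% and 10.5% at Day 15 +Wnt. Nefh, the heavy neurofilament gene of mature axons, had a mean of at most 1.43 CPM in any group and was lower in +Fgf than in +Wnt tissue at Day 15 (-0.75, SE 0.27, limma adjusted p = 0.0194), the direction opposite to Nefl and Nefm.

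**Figure D4:**
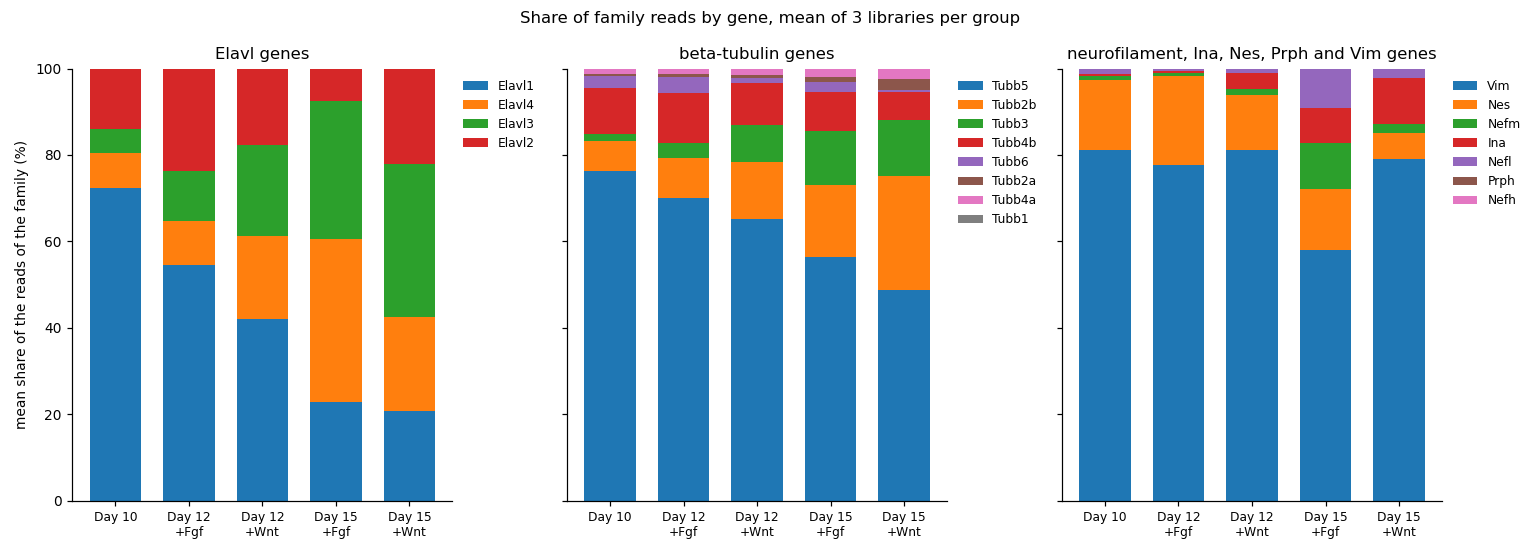
Mean share of family reads (%) taken by each gene of 3 families in the 5 groups, as bars that add up to 100% for 3 libraries per group. The Elavl panel shows Elavl4 with 37.7% at Day 15 +Fgf and 21.8% at Day 15 +Wnt, and the right panel shows Nefl and Nefm with larger shares at Day 15 +Fgf than in the other groups.

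Stmn2 took 1.36% of stathmin reads at Day 10, 18% at Day 15 +Fgf and 17.1% at Day 15 +Wnt. Per kilobase of annotated exons its shares were 0.469%, 6.73% and 6.18%, and Stmn3 was above it at Day 15 with 9.31% and 15.6%. Its paralogs Stmn3 (95.1 ± 3.14 and 122 ± 10.2 CPM) and Stmn4 (76.6 ± 6.90 and 110 ± 5.36 CPM) had the higher mean in +Wnt tissue at Day 15 but were not called (limma adjusted p = 0.0951 and 0.0580). Dcx took 13.4% of the reads of the doublecortin family at Day 10, 49.9% at Day 12 +Wnt, 46.2% at Day 15 +Fgf and 57.7% at Day 15 +Wnt. Mapt took 0.91% of the reads on Map2, Mapt and Map4 at Day 10, 15.9% at Day 15 +Fgf and 23.7% at Day 15 +Wnt, or 1.85%, 28.5% and 39.7% per kilobase of annotated exons.

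A list of 24 other genes of the neuronal cytoskeleton was read in the same way. From Day 10 to Day 12, 20 of the 24 rose and 1 fell with Fgf (median 0.61), and 20 rose and 1 fell with Wnt (median 0.90), where 27.9% and 30.6% of all tested genes were higher. From Day 12 to Day 15, 24 of 24 rose with Fgf (median 0.96) and 22 of 24 with Wnt (median 1.12), where 27.2% and 32.5% of all tested genes were higher. At Day 15, 4 were higher and 8 lower in +Fgf tissue (median -0.13), where 38.0% of all tested genes were higher and 30.6% lower, and Nefh was among the 8. Examples are Dpysl4, a collapsin response mediator (1.01, SE 0.075, limma adjusted p = 4.21e-09), and Kif21b, a kinesin (-0.74, SE 0.081, limma adjusted p = 4.77e-07). Of 12 neuronal RNA-binding genes, 4 were higher and 6 lower in +Fgf tissue at Day 15 (median -0.51). Srrm4, a splicing factor of neuronal microexons, was higher (1.29, SE 0.20, limma adjusted p = 2.33e-05), and Celf5 was lower (-1.41, SE 0.22, limma adjusted p = 1.97e-05). Of 14 broadly expressed or progenitor counterparts such as Tubb5, Stmn1, Elavl1, Nes and Vim, 12 were higher and 1 lower in +Fgf tissue at Day 15 (median 0.50).

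The genes whose pattern over the 15 libraries was most like the mean of the 10 were Gdap1l1 (Pearson's r of log2 levels 0.992), Dusp26 (0.991), Chgb (0.990), Ebf3 (0.990) and Rab9b (0.989). The neighbours of the neurofilament genes were others. Prdm1 and A230070E04Rik were the 2 genes most like Nefl (0.980 and 0.975) and most like Nefm (0.981 and 0.992). Prdm1, a transcription factor of photoreceptor precursors, was at 52.9 ± 7.0 CPM at Day 15 +Fgf and at 2.44 ± 0.629 CPM at Day 15 +Wnt (SD, n = 3). The genes most like Dcx were Dner and Chga (both 0.995), and Dner had 38.5 ± 5.01 CPM at Day 15 +Fgf and 80.8 ± 14.0 CPM at Day 15 +Wnt. The genes were picked for this likeness, so it is a description.

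Markers of particular neurons moved with the Day 15 groups, and their part in the differences of the 10 genes was not tested. Of 13 retinal ganglion cell genes, 12 were tested, and 9 were higher and 1 lower in +Fgf tissue (median 3.05), where 38.0% of all tested genes were higher and 30.6% lower. Their summed level ranged from 643 to 779 CPM at Day 15 +Fgf and from 221 to 274 CPM at Day 15 +Wnt, from 90.4 to 94.5 CPM at Day 10, from 108 to 127 CPM at Day 12 +Fgf and from 101 to 128 CPM at Day 12 +Wnt. Atoh7, the factor that ganglion cells require, had a mean of 102 CPM at Day 15 +Fgf and 0.0674 CPM at Day 15 +Wnt, and Pou4f2, a factor of differentiating ganglion cells, had 82.1 and 1.53 CPM. Sncg, a gene enriched in ganglion cells, had 109 and 2.08 CPM. The lower gene was Thy1 (-1.91, SE 0.37, limma adjusted p = 0.000195), at 0.295, 0.962 and 1.63 CPM with Fgf and 4.16, 2.76 and 5.33 CPM with Wnt. Nrn1 was not called, at 26.3, 38.0 and 37.7 CPM with Fgf and 75.3, 87.9 and 78.9 CPM with Wnt. At Day 12, 9 of the 10 genes were lower in +Fgf tissue. Of the 12 tested ganglion cell genes, 7 were then higher with Fgf and 3 lower. Among all 13845 tested genes, 3642 were higher and 3489 lower. Pou4f2 was then at 12.6 CPM with Fgf and 0.132 CPM with Wnt, but Ebf3 was at 18.2 and 52.4 CPM. Nrn1 was at 1.90, 5.93 and 0.192 CPM with Fgf and at 15.2, 12.7 and 17.7 CPM with Wnt.

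Of 12 forebrain neuron genes, 8 were tested, and 4 were lower and 2 higher in +Fgf tissue at Day 15 (median -1.82), a called share near the 68.7% of all tested genes. Their summed level ranged from 73.5 to 101 CPM at Day 10, from 108 to 150 CPM at Day 12 +Fgf, from 163 to 194 CPM at Day 12 +Wnt, from 150 to 295 CPM at Day 15 +Fgf and from 336 to 423 CPM at Day 15 +Wnt. Tbr1, a factor of glutamatergic cortical neurons that some retinal ganglion cells also use, was at 176, 216 and 174 CPM at Day 15 +Wnt. It was at 0.885, 26.2 and 41.2 CPM at Day 15 +Fgf. Neurod6, a factor of cortical neurons, was at 0.0737, 39.1 and 44.0 CPM at Day 15 +Fgf. At Day 15 +Wnt Neurod6 was at 24.9, 35.6 and 56.0 CPM, so its groups overlapped. The Day 15 +Fgf library with the lowest Tbr1 and Neurod6 was the highest of its group for 6 of the 10 genes, Nefl and Nefm among them, and the lowest for Dcx, Map2 and Mapt. In Day 15 +Fgf minus +Wnt, leaving out any 1 library kept the difference of Nefl between 2.37 and 2.55 and that of Nefm between 2.61 and 2.80. The 2 genes that were higher, Dlx1 and Dlx2, are also used by retinal neurons.

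**Figure D5:**
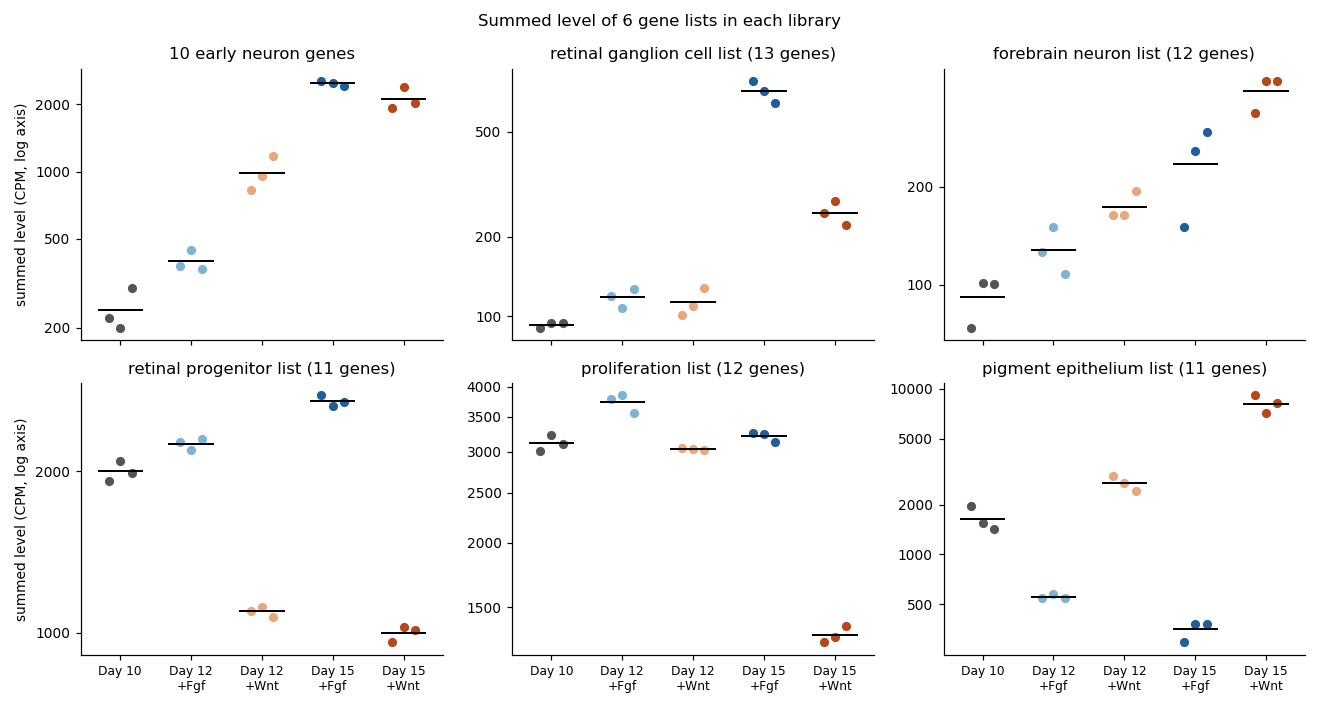
Summed level (CPM, log axis) of the 10 early neuron genes and of 5 marker lists in each library, with 1 point per library and a bar at the mean of 3 libraries. At Day 15 the sums of the 10 genes lie between 1937 and 2551 CPM, while the retinal ganglion cell and progenitor lists are higher with Fgf and the forebrain neuron and pigment epithelium lists are higher with Wnt.

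The remaining lists were read at Day 15 in +Fgf minus +Wnt, where 38.0% of all tested genes were higher and 30.6% lower, and several of the counts are near these shares. Of 18 proneural and neuronal factors, 9 were higher and 5 lower (median 0.31). Of 11 amacrine and horizontal cell genes, 6 were higher and 4 lower (median 2.03), and of 7 tested photoreceptor genes out of 9, 6 were higher and 1 lower (median 2.37). Of 7 tested midbrain, hindbrain and spinal neuron genes out of 15, 3 were higher and 2 lower (median -0.23), with a summed level from 42.5 to 46.4 CPM with Fgf and from 6.39 to 12.8 CPM with Wnt. Most of the sum with Fgf was 1 gene, Pax2, at 34.7 CPM with Fgf and 0.681 CPM with Wnt, which the optic stalk also expresses. Of 6 tested neural crest genes out of 9, 2 were lower and none higher (median -0.18), with a summed level from 42.2 to 56.1 CPM with Fgf and from 87 to 91.1 CPM with Wnt. The retinal progenitor list had 10 of 11 higher (median 2.01), the proliferation list 12 of 12 higher (median 1.13), and the pigment epithelium list 9 of 9 tested lower (median -4.45).

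The reads of some genes may be shared. An isoform of Nefm (chr14:68082590-68124846, - strand) in the GENCODE annotation overlaps Nefl (chr14:68083863-68089095, + strand) on the opposite strand, and whether the counting used strand is not given in the sources used here. Map2 (chr1:66175273-66442583, + strand) overlaps Gm10558 on the opposite strand, and Elavl3 (chr9:22015005-22052023, - strand) overlaps Gm49318 on its own strand. No overlap was annotated for the other genes, which lie at chr8:123411424-123422015 (Tubb3, + strand), chrX:143855842-143933311 (Dcx, - strand), chr3:8509360-8561606 (Stmn2, + strand), chr11:104231390-104332090 (Mapt, + strand), chr4:110203722-110351909 (Elavl4, - strand) and chr16:42248442-42340651 (Gap43, - strand).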

How the data were processed

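RNA-seq of 15 samples (5 groups, 3 replicates each) was used, with groups taken from the deposited labels. Per the submitters' processing notes, the tools named are bcl2fastq 1.8.4, FastQC 0.10.1, TopHat2 2.0.8b, Cuffdiff, Cufflinks 2.1.1 and edgeR 3.2.4, with the build mm10. The authors made stranded mRNA libraries, and the strand setting of the counting is not given in the sources used here. The values deposited by the authors are a signal in CPM, scaled between libraries, with column totals from 936418 to 1075448. The values were whole multiples of 1 read in 100% of cases (tolerance 0.01), so read counts were recovered from the deposited signal, 12556998 to 16175450 per library (median 15073047).

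Genes with at least 1 CPM in at least 3 samples (13845 of 23244) were fitted as log2(value + 0.3) with limma 3.58.1 in R 4.3.3, with 5 group means, a mean-variance trend and all samples sharing 1 estimate of the spread. Tests were two-sided with Benjamini-Hochberg adjustment over all tested genes in each of 9 comparisons, at a threshold of 0.05. The script was tested on simulated data. edgeR 4.0.16 and DESeq2 1.42.0 on the recovered reads were alternatives, and edgeR called 9318 and DESeq2 8962 genes at Day 15 between stimulations. Other alternatives were quantile and median-of-ratios scaling, pseudocounts of 0.05 and 1, no filter (18640 genes), a 10 CPM filter (10971 genes), no trend, only the samples compared, the RNA integrity number that the study lists as a covariate, a replicate block and leaving out each library. Positions and overlaps came from GENCODE M21 (GRCm38) and promoter windows from RefSeq on GRCm38.p6. Overlaps were read for the exons of the transcript matched to each entry.

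The 10 genes and the 13 marker lists were chosen with earlier results of these data known. The text names the 10 genes, their families, the most changed called genes of each list, markers at 5 CPM or more in every sample of a group, and the genes most correlated with the 10 or with 1 of them. Rpe65, Best1, Pax2 and the factors in the closing section were picked after their values were seen. So were Nrn1 and, at Day 12, Sim1, Tbr1, Pou4f2 and Ebf3. The labels call the replicates biological without saying what separates them. The p-values set each difference against the spread between these samples, pooled over the 5 groups. Whether that is the spread between separate cultures is not known.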

Additional observations from a re-analysis of the deposited data

Results flagged for a closer look

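For each of the 10 genes, the change from Day 12 to Day 15 differed between stimulations by the test of the difference itself. In each case it was larger with Fgf on the log2 scale. The differences, as +Fgf minus +Wnt on the log2 scale with the limma adjusted p, were 3.02 for Nefl (1.29e-08), 2.95 for Nefm (1.22e-07) and 2.24 for Elavl4 (1.4e-07). They were 1.79 for Stmn2 (2.05e-05), 1.53 for Tubb3 (4.34e-05), 1.5 for Mapt (0.000629) and 1.27 for Dcx (0.0063). They were 1.24 for Elavl3 (0.000871), 1.23 for Gap43 (9.44e-06) and 1.12 for Map2 (0.000506). Beside these, 27.0% of all tested genes were called in the same direction. The RNA integrity numbers of Day 12 +Fgf and Day 15 +Fgf did not overlap, so RNA quality cannot be told apart from day in the +Fgf change. With that number as a covariate the 10 calls were kept.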

How the results depend on the processing

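With the RNA integrity number as a covariate, 5 of the 10 genes were called in Day 12 +Fgf minus Day 10 (4 higher) instead of 8, and 3 at Day 15 between stimulations (3 higher) instead of 7. Over all 13845 tested genes the calls went from 7716 to 5608 and from 9505 to 6362. In neither comparison did the RNA integrity numbers of the groups overlap, so RNA quality and group cannot be told apart there. The same limit holds in Day 12 +Wnt minus Day 10, Day 15 +Fgf minus Day 12 +Fgf and Day 15 +Wnt minus Day 10. In these 3 comparisons and the interaction term the covariate changed no call of the 10 genes. Calls over all tested genes went from 7899 to 3591 in Day 15 +Fgf minus Day 12 +Fgf and from 6636 to 3842 in the interaction term. Leaving out 1 library at a time gave 6 to 8 called genes in Day 12 +Fgf minus Day 10, 8 to 9 in Day 12 +Wnt minus Day 10, 9 to 10 in Day 15 +Wnt minus Day 12 +Wnt and 6 to 7 at Day 15 between stimulations. The direction reversed in 3 cases, none of them called before or after. These were Nefl in Day 12 +Wnt minus Day 10 (0.0547 without Day 12 +Wnt replicate 2, and -0.26 at the other end of the leave-one-out range), Nefm in Day 12 +Fgf minus Day 10 (-0.0585 with the RNA integrity number) and Nefm at Day 12 between stimulations (0.0468 without Day 12 +Wnt replicate 3, and -0.38 at the other end). The cause was not tested. Of the other values of single genes, 1649 kept their direction and side of the threshold, 18 lost a call and 10 gained one. Quantile normalization shifted the median of all tested genes by -0.102 in Day 15 +Wnt minus Day 10.

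Per kilobase of annotated exons, the family shares at Day 15 +Fgf were 17.7% for Tubb3, 6.73% for Stmn2, 47.4% for Elavl4, 38.8% for Map2, 28.5% for Mapt, 12.3% for Nefl and 8.55% for Nefm. No pairing by replicate number was seen in the values. Deviations of same-numbered samples had correlations from -0.25 to 0.24, and those of different-numbered samples from -0.33 to 0.29. Of 15 libraries, 0 were closest to their own number throughout. Whether same-numbered samples shared a culture cannot be read from these values. With the replicate block, 9 genes instead of 8 were called in Day 12 +Wnt minus Day 10, through Nefm (limma adjusted p = 0.0453), and the other counts of called genes were equal.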

Other observations

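Transcription factors of neuron birth, read as a list of 18, were lower in +Fgf than in +Wnt tissue at Day 12 for 13 genes and higher for 1 (median -1.85). Of all tested genes, 25.2% were lower there. From Day 12 to Day 15, 16 rose and none fell with Fgf (median 2.75), and 9 rose and 3 fell with Wnt (median 0.40). Over all tested genes, 27.2% rose with Fgf and 32.5% with Wnt. At Day 15 the 18 factors did not move as 1 group. Neurod4, a bHLH factor of retinal neurons, was at 125 ± 10.1 CPM with Fgf and 2.96 ± 0.564 CPM with Wnt (SD, n = 3). Ebf2, a factor of differentiating neurons, was at 4.55 ± 1.09 CPM with Fgf and 41.5 ± 10.9 CPM with Wnt (SD, n = 3). Myt1, a zinc finger factor of new neurons, was at 95 ± 5.81 and 28.5 ± 5.17 CPM, whereas its relative Myt1l was at 15.0 ± 3.71 and 43.0 ± 6.57 CPM.

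Photoreceptor and interneuron genes were also split at Day 15. Crx, a factor of photoreceptor precursors, was at 103 ± 12.1 CPM with Fgf and 2.53 ± 0.212 CPM with Wnt (SD, n = 3), while Rcvrn and Nr2e3, which mark later photoreceptors, were at 0 in the +Fgf libraries of that day. Calb2, which encodes calretinin, was at 12.6 ± 8.58 CPM with Fgf and 78.3 ± 11.6 CPM with Wnt, and Gad2, which encodes a GABA-synthesising enzyme, was at 34.0 ± 2.36 and 1.56 ± 0.423 CPM.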
